A study of Homo sapiens with 10 samples.

Results

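MHC class I antigen presentation was followed through 9 genes in clones of the cell line U2932, which was established from a human diffuse large B-cell lymphoma. The genes encode the class I heavy chains HLA-B, HLA-C and HLA-E, their light chain B2M, the peptide transporter subunits TAP1 and TAP2, the immunoproteasome subunits PSMB9 and PSMB10, and NLRC5, the transactivator of class I genes. They were taken by name, each matched 1 Ensembl identifier, and all 9 were among the 11961 genes that passed the filter on low counts, of 21174 in the table. The 5 CREBBP+/- libraries (Het_6 to Het_10) came from clones labelled heterozygous for CREBBP, a histone acetyltransferase and transcriptional coactivator, and the 5 CREBBP+/+ libraries (WT_1 to WT_5) from clones with both copies. All were grown in the same serum-supplemented RPMI medium with no further agent named. For the change made in CREBBP, how clones were derived and when libraries were prepared, the answer is not given in the sources used here. A p-value here therefore weighs genotype against the spread among 10 libraries, which may in part be technical. The columns Het_6 to Het_10 carry numbers that no labelled clone has, and they were used as 5 libraries of their genotype.

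CREBBP itself averaged 69.6 ± 10.2 CPM (reads per 1000000 counted) in CREBBP+/- libraries, each of them below each CREBBP+/+ library, where it averaged 115 ± 13.5 CPM (SD, n = 5 each). Total counts per library ran from 10615977 in Het_9 to 23020694 in Het_6. By the expression of genes outside the class I and class II lists, the libraries formed 3 clusters, one of Het_8 with WT_1 and WT_2, one of Het_6 and Het_7 with WT_3, WT_4 and WT_5 (here the WT_3 cluster), and one of Het_9 and Het_10 with no CREBBP+/+ library. These clusters are not groups of the study and get no test. Summed counts of 6 B cell markers were high in every library (2017 to 3523 CPM among CREBBP+/- libraries, against 1909 to 3438 CPM among CREBBP+/+ libraries). The 7 T and NK cell markers reached summed levels of at most 0.596 CPM in CREBBP+/- libraries, against 0.262 CPM in CREBBP+/+ libraries, with CD3D, CD2 and NKG7 at 0 throughout, and the 6 myeloid markers of at most 1.46 CPM in CREBBP+/- libraries, against 1.41 CPM in CREBBP+/+ libraries, with S100A8 and S100A9 at 0 throughout.

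Class I molecules show peptides from inside the cell to CD8 T cells and NK cells. The proteasome cuts proteins into peptides, and in immune cells some of its catalytic subunits are replaced by immunoproteasome subunits. TAP1 and TAP2 form the channel that carries the peptides into the endoplasmic reticulum, where they load onto a heavy chain bound to B2M. NLRC5 is recruited to class I promoters through the RFX complex, and interferon regulatory factors and NF-kappaB act on the same promoters. B cell lymphomas often lose surface class I, through lesions in B2M among other routes.

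The promoters of 4 members are shown because their transcripts split into genes that followed the library clusters (HLA-B, HLA-C, PSMB9) and a partner that did not (B2M). Each is the window of 250 bases before the start that RefSeq gives on GRCh38.p14, written 5′ to 3′ on the gene's strand, from chr6:31357180-31357429 (minus strand) for HLA-B, chr6:31272093-31272342 (minus) for HLA-C, chr6:32853942-32854191 (plus) for PSMB9 and chr15:44711267-44711516 (plus) for B2M. Capitals mark matches, on either strand, to the interferon regulatory factor core AANNGAAA, a kappaB-like element (GGGA, any base, T, any 2 bases, CC), the CCAAT box CCAAT and TGACG, the core of the cAMP response element.
HLA-B: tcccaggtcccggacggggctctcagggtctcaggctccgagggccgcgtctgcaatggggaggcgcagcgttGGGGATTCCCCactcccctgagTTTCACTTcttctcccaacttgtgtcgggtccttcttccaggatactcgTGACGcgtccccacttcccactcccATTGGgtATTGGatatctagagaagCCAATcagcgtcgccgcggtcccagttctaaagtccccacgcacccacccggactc
HLA-C: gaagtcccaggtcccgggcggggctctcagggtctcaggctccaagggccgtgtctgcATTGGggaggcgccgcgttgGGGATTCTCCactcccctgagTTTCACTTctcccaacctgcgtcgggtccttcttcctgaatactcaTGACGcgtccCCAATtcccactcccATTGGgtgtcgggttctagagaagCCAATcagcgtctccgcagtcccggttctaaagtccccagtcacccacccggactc
PSMB9: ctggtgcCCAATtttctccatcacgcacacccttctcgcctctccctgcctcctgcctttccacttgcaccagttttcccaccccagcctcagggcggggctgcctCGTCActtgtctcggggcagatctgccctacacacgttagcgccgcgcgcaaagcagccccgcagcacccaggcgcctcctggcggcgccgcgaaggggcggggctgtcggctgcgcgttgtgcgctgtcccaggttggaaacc
B2M: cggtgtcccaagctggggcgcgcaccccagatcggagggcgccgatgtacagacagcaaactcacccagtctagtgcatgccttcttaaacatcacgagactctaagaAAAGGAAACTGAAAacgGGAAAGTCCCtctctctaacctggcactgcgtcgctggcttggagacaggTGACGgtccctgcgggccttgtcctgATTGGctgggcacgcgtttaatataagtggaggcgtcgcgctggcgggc

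HLA-B and HLA-C were identical at 226 of the 250 positions of HLA-B (90.4%) in a global alignment, and HLA-B and B2M at 133 (53.2%). Both HLA promoters and B2M held the interferon core, the kappaB-like element, the CCAAT box and TGACG. PSMB9 held a CCAAT box and TGACG in this window, but no interferon core or kappaB-like element. One of the 2 TAP1 windows, chr6:32853705-32853954 (minus), overlaps that of PSMB9 and held 2 interferon cores and 1 kappaB-like element outside the shared bases. The other TAP1 window held no match, and TAP2 and PSMB10 held 2 interferon cores each. The 2 kappaB-like matches of HLA-B overlap on opposite strands, and the 2 interferon cores of B2M overlap on the same strand. Of 35114 promoter windows of the same length, 20.3% held AANNGAAA, 4.46% the kappaB-like element, 32.0% CCAAT and 21.2% TGACG. A match is a description of the letters and not of binding. Gene spans given below are those of GENCODE v44 over all annotated transcripts, so the windows printed here lie wholly or partly inside them. Promoters were found for 7 of the 9 members. HLA-E and NLRC5 had none in the table.

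Compared per length of the canonical transcript, B2M was the most abundant member in 9 of the 10 libraries and NLRC5 the least in all 10. The exception was WT_4, where HLA-B had 535 and B2M 474 CPM per kilobase. As CPM per kilobase of the canonical transcript, B2M had 542 ± 34.7 in CREBBP+/- and 586 ± 85.9 in CREBBP+/+ libraries, HLA-B 294 ± 135 and 363 ± 154, and HLA-C 223 ± 67.5 and 286 ± 89.9 in the same order (SD, n = 5 each). The other 6 members were lower on this scale, with means over all libraries of 45.9 for PSMB10, 43.3 for PSMB9, 33.5 for TAP2, 27.7 for HLA-E, 24.8 for TAP1 and 3.42 for NLRC5. In both genotypes HLA-B and HLA-C differed by less than the SD of HLA-B, and PSMB10, PSMB9 and TAP2 each differed from the next in this order by less than the SD of PSMB9. TAP2 and HLA-E differed by less than the SD of either in CREBBP+/+ libraries only, and HLA-E and TAP1 by less than the SD of either in CREBBP+/- libraries only. The order depended on the length used. With all annotated exons as the length, the means over all libraries were 170 for B2M, 156 for HLA-C and 109 for HLA-B. HLA-C then stood above HLA-B, and above B2M in some libraries of the WT_3 cluster. NLRC5 stayed lowest, at a mean of 1.87.

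HLA-B, a classical heavy chain (ENSG00000234745, chromosome 6, 31353872 to 31367067, GRCh38), was the member that varied most, with a span of 4.13-fold over the 10 libraries. In CREBBP+/- libraries it had 691, 641, 199, 370.0 and 358 CPM in Het_6 to Het_10, and in CREBBP+/+ libraries 342, 288, 739, 821 and 596 CPM in WT_1 to WT_5. The groups overlapped widely, and in both genotypes the libraries of the WT_3 cluster were the high ones. Its log2 fold change, CREBBP+/- over CREBBP+/+, was -0.30 (SE 0.38, edgeR quasi-likelihood adjusted p = 0.988, exact permutation p = 0.516), and leaving out 1 library gave -0.50 (without Het_6) to -0.11 (without Het_8), with -0.12 without WT_4.

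HLA-C, the other classical heavy chain and a ligand of inhibitory NK receptors (ENSG00000204525, chromosome 6, 31268749 to 31272130), had 459, 446, 222, 286 and 307 CPM in Het_6 to Het_10, against 349, 276, 538, 618 and 422 CPM in WT_1 to WT_5. The order of the libraries was close to that of HLA-B, with Het_8 lowest and WT_4 highest. For HLA-C the log2 fold change was -0.36 (SE 0.26, edgeR adjusted p = 0.988), and -0.20 without WT_4. HLA-B and HLA-C are near-identical over long stretches and highly polymorphic, so reads could be split between them or lost in mapping, and the treatment of such reads in counting is not stated in the labels.

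HLA-E, the non-classical heavy chain that engages the NKG2A receptor of NK cells (ENSG00000204592, chromosome 6, 30489509 to 30494194), came closest to separating the genotypes. Its level was 66.6, 55.0, 30.8, 74.1 and 70.4 CPM in Het_6 to Het_10, against 80.2, 72.7, 78.3, 95.3 and 83.0 CPM in WT_1 to WT_5. Of the CREBBP+/- libraries 4 lay below every CREBBP+/+ library, and Het_9 lay above WT_2 alone. HLA-E averaged 59.4 ± 17.5 CPM over the CREBBP+/- libraries, against 81.9 ± 8.41 CPM over the CREBBP+/+ libraries (SD, n = 5 each). On the log2 scale the fold change was -0.46 (SE 0.21), with a 95% interval of -0.92 to -0.01. HLA-E had the smallest p of the members, 0.0456 before adjustment in edgeR, and did not pass over all genes (adjusted p = 0.977). The exact permutation p was 0.0159, unadjusted and 1 of 9 such tests. Leaving out Het_8, where HLA-E was at 30.8 CPM, gave -0.30 (SE 0.11, edgeR adjusted p = 0.490).

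B2M, the light chain that every class I molecule needs for surface expression (ENSG00000166710, chromosome 15, 44711358 to 44718851), was among the steadiest members. It had 483, 496, 527, 562 and 490.0 CPM in Het_6 to Het_10, against 631, 589, 486, 447 and 609 CPM in WT_1 to WT_5. The CREBBP+/- range lay inside the CREBBP+/+ range. Its genotype difference was -0.11 in log2 (SE 0.11, adjusted p = 0.988 in edgeR), and leaving out 1 library gave -0.18 without WT_4 to -0.06 without WT_1.

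TAP1, the first subunit of the peptide transporter (ENSG00000168394, chromosome 6, 32845209 to 32853816), had a narrow spread, 1.27-fold over the 10 libraries. The values were 62.2, 61.6, 59.5, 63.8 and 69.5 CPM in Het_6 to Het_10, against 70.2, 65.1, 68.6, 75.3 and 71.2 CPM in WT_1 to WT_5. Here 4 CREBBP+/- libraries lay below every CREBBP+/+ library, and Het_10 lay inside the CREBBP+/+ range. TAP1 differed by -0.15 in log2 between the genotypes (SE 0.07, 95% interval -0.31 to 0.02, edgeR adjusted p = 0.984, unadjusted exact permutation p = 0.0238).

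TAP2, its partner (ENSG00000204267, chromosome 6, 32821833 to 32838739), showed no genotype difference beyond its spread. It had 193, 193, 159, 188 and 208 CPM in Het_6 to Het_10, against 197, 163, 198, 204 and 185 CPM in WT_1 to WT_5. Het_8 and WT_2 were the low libraries, 1 in each genotype. TAP2 differed by -0.01 in log2 (SE 0.09, 95% interval -0.22 to 0.20, edgeR adjusted p = 0.997), and its sign turned with upper-quartile factors (0.02) and without Het_8 (0.05), WT_1 (0.01), WT_3 (0.01) or WT_4 (0.02).

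PSMB9, an immunoproteasome subunit whose gene lies head to head with TAP1 (ENSG00000240065, chromosome 6, 32844136 to 32859851), followed HLA-B. It had 50.3, 45.0, 22.2, 42.6 and 39.1 CPM in Het_6 to Het_10, against 32.1, 27.4, 58.3, 66.1 and 57.0 CPM in WT_1 to WT_5. Het_8, WT_2 and WT_1 were the lowest libraries, and the groups overlapped. The log2 fold change was -0.28 (SE 0.28, edgeR adjusted p = 0.988), -0.12 without Het_8 and -0.42 without WT_2. The gene span given for PSMB9 takes in that of TAP1, and head to head refers to the starts in RefSeq. Despite these neighbouring starts, TAP1 spanned 1.27-fold and PSMB9 2.98-fold between their lowest and highest libraries.

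PSMB10, the immunoproteasome subunit encoded outside the MHC (ENSG00000205220, chromosome 16, 67934506 to 67936864), had 42.9, 40.4, 30.6, 41.3 and 44.5 CPM in Het_6 to Het_10, against 46.3, 38.0, 58.9, 47.0 and 58.4 CPM in WT_1 to WT_5. Het_8 stood below the other 4 CREBBP+/- libraries, and 4 of the 5 CREBBP+/+ libraries lay above every CREBBP+/- library. PSMB10 differed by -0.32 in log2 (SE 0.14, 95% interval -0.64 to 0.00, unadjusted p = 0.0524 and adjusted p = 0.977 in edgeR, exact permutation p = 0.0952).

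NLRC5, the paralog of the class II transactivator CIITA (ENSG00000140853, chromosome 16, 56989485 to 57083531), had 25.7, 24.7, 25.0, 17.1 and 15.8 CPM in Het_6 to Het_10, against 29.8, 23.7, 25.7, 18.8 and 25.8 CPM in WT_1 to WT_5. Its low libraries were Het_9, Het_10 and WT_4. These values rest on 186 to 602 reads per library. The log2 fold change was -0.19 (SE 0.17, edgeR adjusted p = 0.988), and its sign turned when clusters entered the fit as a covariate (0.03) and when Het_9 and Het_10 were both left out (0.03). Without Het_10 it was -0.09. CIITA averaged 91.3 ± 15.9 CPM in the CREBBP+/- libraries, each of them below every CREBBP+/+ library, where its mean was 179.9 ± 42.5 CPM (SD, n = 5 each). Its log2 difference was -0.98 (SE 0.17), which passed in DESeq2 (adjusted p = 0.000299) and not in edgeR (adjusted p = 0.395), with an unadjusted exact permutation p of 0.00794, the smallest possible here. The difference between the NLRC5 and CIITA fold changes was not tested.

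**Figure D1:**
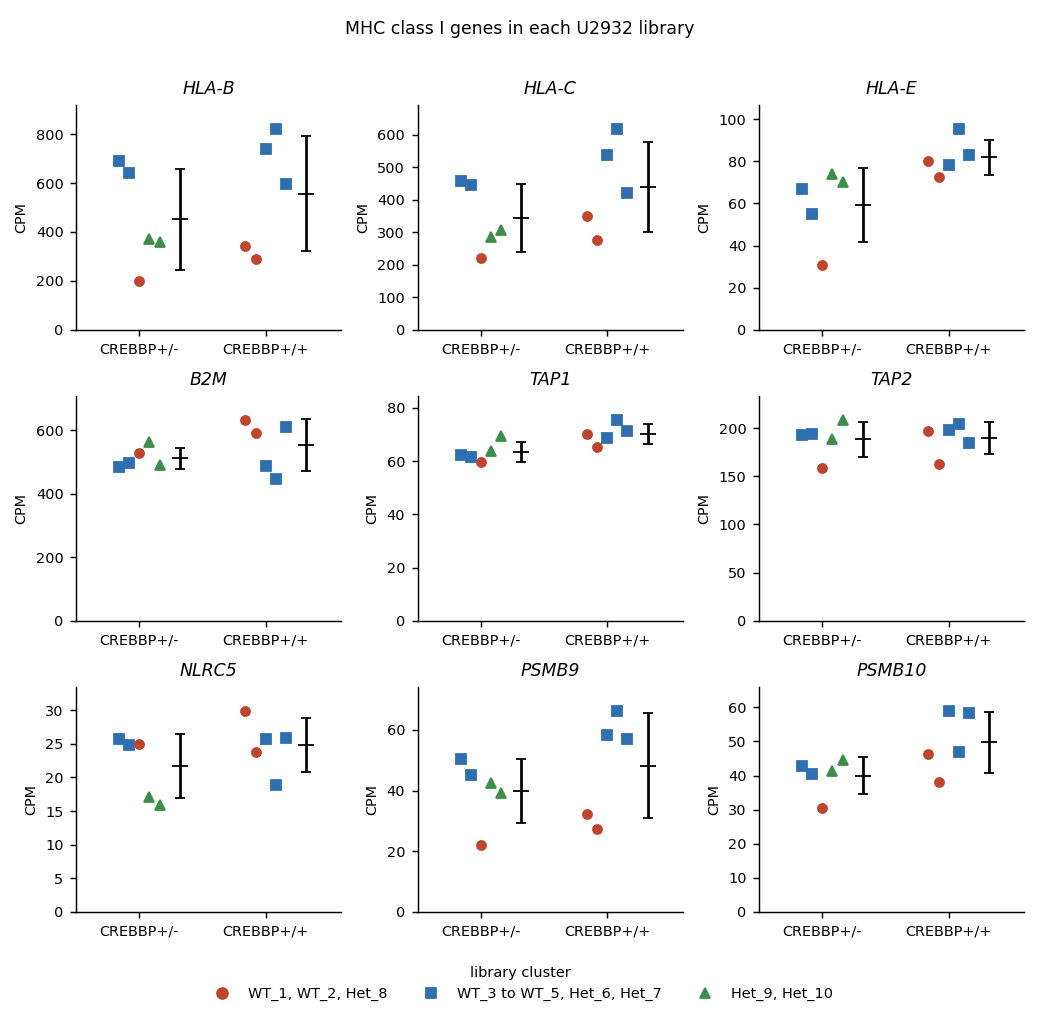
Level of each of the 9 members in CPM (y axis, from 0) in the 5 CREBBP+/- libraries (left in each panel, Het_6 to Het_10 from left to right) and the 5 CREBBP+/+ libraries (right, WT_1 to WT_5), with colour and marker for the library cluster and black marks for mean ± SD. HLA-B, HLA-C and PSMB9 are high in the WT_3 cluster in both genotypes, while HLA-E and TAP1 have 4 CREBBP+/- libraries below every CREBBP+/+ library.

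Across genotypes, no member passed the threshold. EdgeR called 0 of the 9 members and 0 of 11961 genes at an adjusted p under 0.05 (a background of 0%). Limma-voom also called 0 genes, and DESeq2 called 34 genes, none of them a member. CREBBP itself, which did not overlap between the genotypes, passed in DESeq2 (adjusted p = 0.000107) and not in edgeR (adjusted p = 0.395). The absence of a call in edgeR therefore does not show that levels were equal. At an unadjusted p under 0.05, edgeR had 596 genes, and 1 of the 9 members, HLA-E, was among those lower in CREBBP+/- libraries, as were 2.6% of all tested genes. The genotypes did not overlap in 0 of the 9 members and in 1.02% of all tested genes. All 9 point estimates were below 0, with the TAP2 sign turning as given above and the NLRC5 sign with the clusters, where 52.4% of all tested genes were below 0. The median log2 fold change was -0.28 over the members and -0.01 over all tested genes. Without Het_8 the median over the members was -0.13, and without WT_2 it was -0.40.

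**Figure D2:**
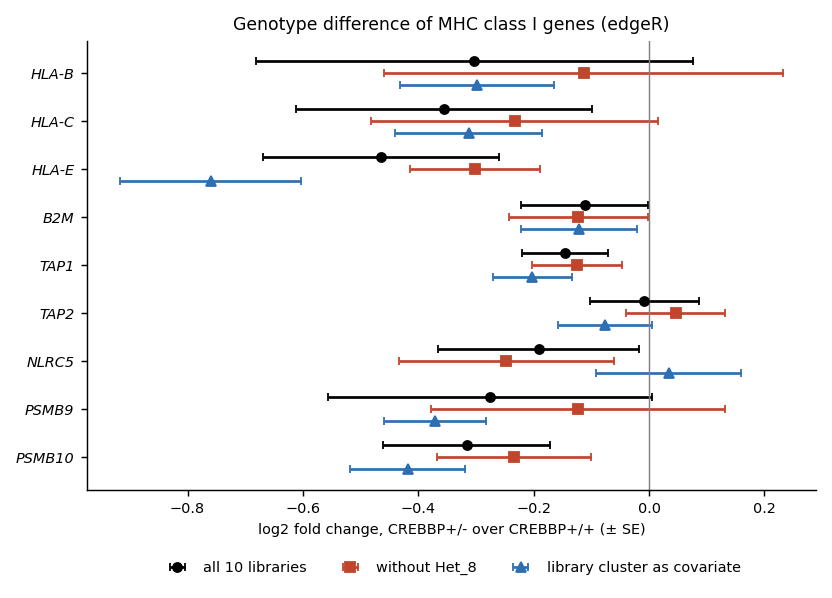
Log2 fold change of each member, CREBBP+/- over CREBBP+/+ (x axis, edgeR, bars ± SE), with all 10 libraries, without Het_8, and with the library cluster as a covariate. HLA-E is at -0.46 with all libraries, -0.30 without Het_8 and -0.76 with the covariate, and TAP2 stays within 0.08 of 0 in these 3 fits.

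Differences between the WT_3 cluster and that of Het_8, WT_1 and WT_2 inside 1 genotype were largest for HLA-B, HLA-C and PSMB9. There they were larger than the genotype differences. In size they also exceeded the genotype difference for PSMB10 (0.38 and 0.44 against -0.32) and TAP2 (0.13 and 0.28 against -0.01). Among CREBBP+/+ libraries, WT_3 to WT_5 exceeded WT_1 and WT_2 in mean log2 CPM by 1.18 for HLA-B (719 against 315 CPM), 0.74 for HLA-C (526 against 312 CPM) and 1.02 for PSMB9 (60.5 against 29.8 CPM). Among CREBBP+/- libraries, Het_6 and Het_7 exceeded Het_8 by 1.74 for HLA-B (666 against 199 CPM), 1.03 for HLA-C (453 against 222 CPM) and 1.10 for PSMB9 (47.6 against 22.2 CPM). These contrasts have no library in common. WT_3 to WT_5 were higher by at least 0.5 in 3 of the 9 members, beside 20.2% of all tested genes in that direction. Het_6 and Het_7 were higher than Het_8 by at least 0.5 in 4 of the 9, where HLA-E (0.97) was the fourth. In that direction 17.9% of all tested genes were. Genes that differed as far the other way are not in these shares. The clusters were themselves drawn from expression, and no test was made.

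Among CREBBP+/+ libraries HLA-E, TAP1 and TAP2 differed little between the clusters. HLA-E differed by 0.16 between WT_3 to WT_5 and WT_1 with WT_2, TAP1 by 0.08 and TAP2 by 0.13. PSMB10 differed by 0.38 there and by 0.44 between Het_6 with Het_7 and Het_8. B2M ran the other way, at -0.26 among CREBBP+/+ and -0.11 among CREBBP+/- libraries, and NLRC5 stood at -0.20 and 0.01 in the same contrasts. The sign was the same in both contrasts for 8 of the 9 members and for 77.7% of all tested genes, with NLRC5 the exception.

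Differences from the cluster of Het_9 and Het_10 varied by member. Het_6 and Het_7 exceeded these libraries by 0.87 for HLA-B (666 against 364 CPM), 0.61 for HLA-C (453 against 297 CPM) and 0.61 for NLRC5 (25.2 against 16.5 CPM). PSMB9 differed by 0.22 and HLA-E by -0.25 (60.8 against 72.2 CPM). In this contrast 3 of 9 members were higher in Het_6 and Het_7 by at least 0.5, beside 10.9% of all tested genes in that direction. It uses the same Het_6 and Het_7 libraries as the contrast with Het_8. Het_9 and Het_10 thus had low HLA-B and HLA-C with the lowest NLRC5 of the series, whereas Het_8 had lower HLA-B and HLA-C with NLRC5 at 25.0 CPM. WT_4 came next in NLRC5, at 18.8 CPM, with the highest HLA-B (821 CPM) and HLA-C (618 CPM) of the series.

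**Figure D3:**
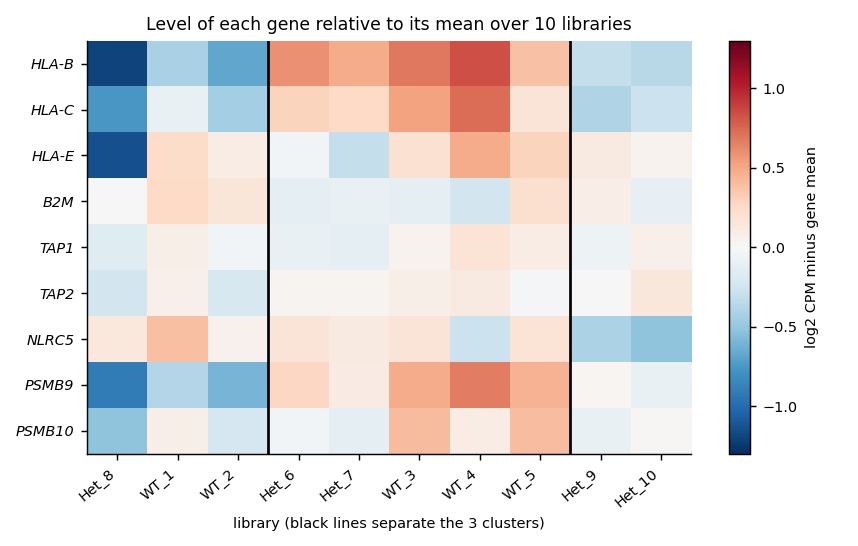
Log2 CPM of each member minus its mean over the 10 libraries (colour), with libraries grouped by cluster and CREBBP+/- libraries left of CREBBP+/+ libraries within a cluster. The WT_3 cluster (middle) is above the mean for HLA-B, HLA-C and PSMB9 in all 5 libraries, Het_8 (far left) is the lowest library for 7 of the 9 members, and Het_9 and Het_10 (right) are the lowest for NLRC5.

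**Figure D4:**
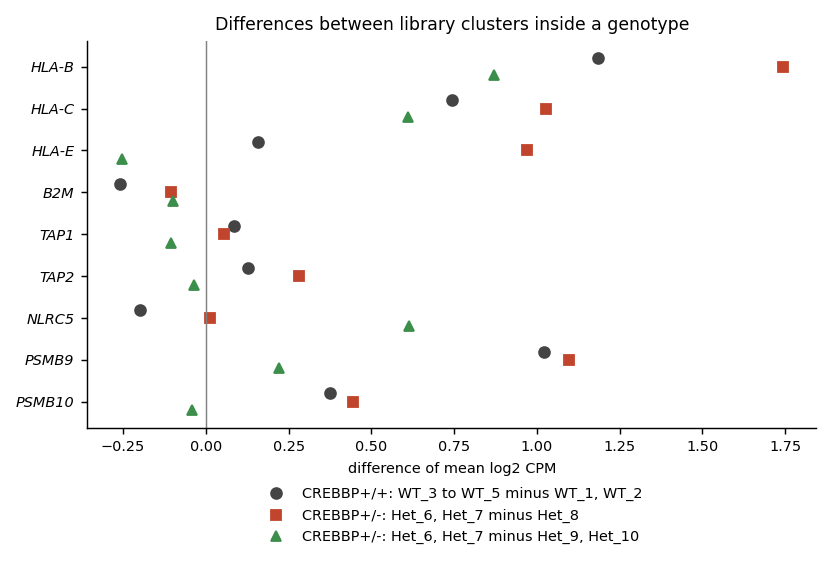
Difference of mean log2 CPM between library clusters inside a genotype (x axis) for each member, for 3 contrasts given in the legend. HLA-B, HLA-C and PSMB9 lie to the right at 0.74 to 1.74 in the contrasts with WT_1, WT_2 and Het_8, and B2M lies below 0 in all 3 contrasts.

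In a count chosen after the values were seen, the 5 libraries of the WT_3 cluster all lay above the other 5 libraries in 3 of the 9 members, HLA-B, HLA-C and PSMB9, and in 10.1% of all tested genes in that direction. The ratio of HLA-B to B2M reads, which does not depend on scaling to library size, was 1.43, 1.29, 0.377, 0.659 and 0.731 in Het_6 to Het_10, against 0.542, 0.488, 1.52, 1.84 and 0.979 in WT_1 to WT_5. The order by cluster was thus the same within a library as between libraries. HLA-B also varied against HLA-C, with 0.895 to 1.51 reads per HLA-C read in CREBBP+/- and 0.980 to 1.41 in CREBBP+/+ libraries, the lowest 3 being those of Het_8, WT_1 and WT_2.

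Levels of other cell markers also differed between clusters. Stromal and epithelial markers, mostly EPCAM, an epithelial adhesion molecule, summed to 1.78 to 13.8 CPM in Het_8, WT_1 and WT_2, 20.7 to 26.7 CPM in the WT_3 cluster and 25.1 to 25.8 CPM in Het_9 and Het_10. B cell markers summed to 1909 to 2196 CPM, 3063 to 3523 CPM and 3106 to 3208 CPM in the same order. Inside the cluster of Het_8, EPCAM split by genotype, at 13.7 CPM in Het_8 against 3.33 CPM in WT_1 and 1.42 CPM in WT_2. The part of these markers in the class I pattern was not tested. In bulk RNA, fewer cells with a transcript and less transcript per cell cannot be told apart.

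**Figure D5:**
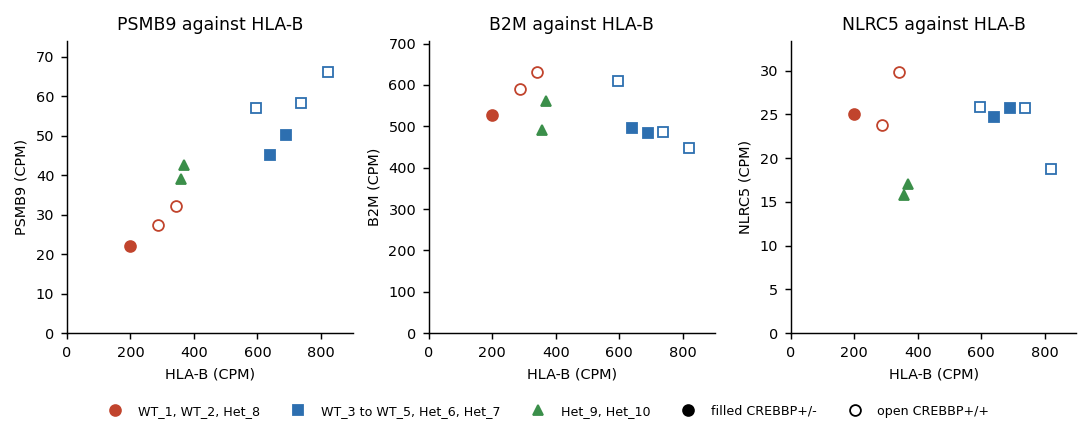
CPM of PSMB9, B2M and NLRC5 (y axes, from 0) against HLA-B (x axis) in the 10 libraries, filled for CREBBP+/- and open for CREBBP+/+, with colour and marker for the cluster. PSMB9 climbs with HLA-B through all 3 clusters, B2M does not, and the NLRC5 values of Het_9 and Het_10, 17.1 and 15.8 CPM, lie beneath those of the other libraries. WT_4, the highest library in HLA-B, is next in NLRC5 at 18.8 CPM.

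Within the clusters that hold both genotypes, most members were lower in the CREBBP+/- libraries. Het_8 was below the mean of WT_1 and WT_2 in 9 of 9 members and in 49.4% of all tested genes, with log2 differences of -1.31 for HLA-E (30.8 against 76.5 CPM), -0.66 for HLA-B (199 against 315 CPM), -0.48 for HLA-C, -0.46 for PSMB10, -0.42 for PSMB9, -0.21 for B2M, -0.18 for TAP1, -0.17 for TAP2 and -0.09 for NLRC5. Het_6 and Het_7 were below the mean of WT_3 to WT_5 in 8 of 9 members and in 50.4% of all tested genes, with -0.49 for HLA-E (60.8 against 85.5 CPM), -0.39 for PSMB10, -0.34 for PSMB9, -0.21 for TAP1, -0.20 for HLA-C, -0.10 for HLA-B, -0.06 for B2M and -0.02 for TAP2, and with 0.12 for NLRC5. HLA-E thus had the most negative difference of the members in both clusters. In both contrasts 8 of 9 members were lower, where 25.3% of all tested genes were. Het_8 is 1 library, and members vary together in part (r = 0.97 for HLA-B and HLA-C over the 10 libraries). Counts of members here and below are therefore not counts of independent cases.

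By a stricter count, chosen after the values were seen, Het_6, Het_7 and Het_8 were each below every CREBBP+/+ library of their own cluster in 4 of the 9 members, HLA-E, TAP1, PSMB9 and PSMB10, and in 7.06% of all tested genes. With the clusters as a covariate, edgeR gave log2 fold changes of -0.76 for HLA-E (SE 0.16, adjusted p = 0.178), -0.37 for PSMB9 (SE 0.09, adjusted p = 0.211) and -0.42 for PSMB10 (SE 0.10, adjusted p = 0.211). TAP1 had -0.20 (SE 0.07, adjusted p = 0.309), HLA-C -0.31 (SE 0.13, adjusted p = 0.369) and HLA-B -0.30 (SE 0.13, adjusted p = 0.390). None passed over all genes. The clusters were drawn from expression in these same libraries, and the SEs and p-values of this fit do not allow for that. For HLA-E it joins differences of -1.31 in Het_8, which is 1 library, and -0.49 in Het_6 and Het_7. Het_9 and Het_10, with no CREBBP+/+ library in their cluster, add nothing to the genotype term of this fit.

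Het_8 was the lowest of the 10 libraries for 7 of the 9 members and for 14.5% of all tested genes. It lay below both WT_1 and WT_2, the CREBBP+/+ libraries of its cluster, for 8 of the 9 members and for 38.3% of all tested genes. The exceptions to the first count were B2M, lowest in WT_4, and NLRC5, lowest in Het_10, and the exception to the second was NLRC5. Its total count was 18471293, inside the range of the other libraries.

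By position, 6 members fall together. HLA-E, HLA-C, HLA-B, TAP2, PSMB9 and TAP1 lie on chromosome 6 between 30489509 and 32859851. The other 81 tested genes of that interval had a median log2 difference of 0.01 between WT_3 to WT_5 and WT_1 with WT_2, of 0.01 between Het_6 with Het_7 and Het_8, and a median genotype log2 fold change of -0.09. PSMB10 and NLRC5 lie on chromosome 16 and B2M on chromosome 15.

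Over the 10 libraries, the closest members in log2 CPM were HLA-B and HLA-C (Pearson r = 0.97), HLA-B and PSMB9 (0.95) and HLA-C and PSMB9 (0.90), followed by HLA-E and TAP1 (0.80). B2M had r = -0.51 with HLA-B and with HLA-C, and NLRC5 had 0.03 with HLA-B, 0.11 with HLA-C and -0.17 with PSMB9. These values describe 10 libraries that fall into 3 clusters and are not independent points. Among 8951 other genes with a mean of at least 10 CPM, those most like the mean standardized profile of the members were ELK1 (r = 0.94), ARPC1B (0.93), NUBP1 (0.92), CTDP1 (0.92) and FTL (0.91), and those most like NLRC5 were BMPR2 (0.93), RNF213 (0.93) and FBH1 (0.92).

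Among the other genes of the pathway edgeR called none and DESeq2 called CIITA. Of 15 other class I presentation genes, all tested, 0 were called by edgeR or DESeq2, 8 were below 0 and 7 above, and the median log2 fold change was -0.00. HLA-F, a non-classical heavy chain, had -0.35 (SE 0.21), ERAP2, an aminopeptidase that trims peptides, -0.27 (SE 0.23), and PSME2, a subunit of the interferon-induced proteasome activator, 0.19 (SE 0.13). The median of these 15 genes differed by 0.24 between WT_3 to WT_5 and WT_1 with WT_2, and by 0.52 between Het_6 with Het_7 and Het_8.

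Of 14 subunits of the constitutive 20S proteasome core, 0 were called by edgeR or DESeq2 and 9 were below 0 (median -0.09), among them the beta subunits PSMB4 (-0.19, SE 0.08, unadjusted p = 0.0485 in edgeR) and PSMB3 (-0.20, SE 0.14) and the alpha subunits PSMA5 (-0.22, SE 0.10) and PSMA6 (-0.20, SE 0.14). PSMB9 and PSMB10 differed by 1.02 and 0.38 between WT_3 to WT_5 and WT_1 with WT_2, against a median of 0.07 for these 14 subunits. Between Het_6 with Het_7 and Het_8 they differed by 1.10 and 0.44, against a median of 0.30. Of 14 promoter factors and interferon signalling genes, 0 were called by edgeR and 1, CIITA, by DESeq2, while 7 were below 0 and 7 above (median 0.00). Besides CIITA, those with the smallest p were RFXAP, a subunit of the RFX complex (0.29, SE 0.19), IFNGR2, a chain of the interferon gamma receptor (-0.15, SE 0.13), and RELA, a subunit of NF-kappaB (-0.12, SE 0.12).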

How the data were processed

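Per the labels, RNA from U2932 clones of 2 CREBBP genotypes was sequenced from libraries made with a TruSeq kit. The table the authors deposited holds unnormalized counts for each Ensembl identifier and library. FastQC, STAR, featureCounts, DESeq2 and GRCh38 are named in the submitters' processing notes, without versions. Annotation, strand use and handling of multiply mapped reads: not given in the sources used here. All deposited counts of 10000 or more (2541 values) are multiples of 10, rounded to 4 significant digits, far below the spread between libraries. In the GENCODE v44 annotation, exons of other genes cover 47.3% of the exon bases of HLA-B, 39.4% of PSMB10, 19.5% of TAP2, 14.2% of TAP1 and 5.21% of PSMB9, so reads there could be assigned elsewhere. TAP1, PSMB9 and HLA-B each overlap a gene on the other strand.

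Symbols were matched for 20804 of 21174 identifiers. EdgeR 4.0.16 in R 4.3.3 (quasi-likelihood F-test, robust, TMM, filterByExpr with minimum count 10) was fitted to the whole table, with Benjamini-Hochberg adjustment over 11961 genes and a two-sided threshold of 0.05. The fit was checked on data made with known fold changes. For single genes, genotype labels were permuted exactly, two-sided, on log2 CPM (prior count 2) over 252 assignments, with a smallest p of 0.00794. Libraries were clustered on log2 CPM (average linkage) leaving out CREBBP, class I and class II genes. Members, lists, clusters and tests were chosen with earlier results of these data known. Named genes were all members, CREBBP, up to 4 of each pathway list by p, and the genes most like the members by r. Values of some single genes in these lists are not reported here. Of the B cell markers, the values given are those of CD22 (log2 fold change 0.33, SE 0.23), CD79B (-0.15, SE 0.15) and CD79A (0.16, SE 0.16), and among the others CD14 (0.14, SE 0.35) and EPCAM (0.58, SE 0.63), none past the threshold. Alternatives were DESeq2 1.42.0, limma-voom (limma 3.58.1), other scaling factors and filters, the clusters as a covariate, and leaving out libraries.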

Additional observations from a re-analysis of the deposited data

Results flagged for a closer look

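A library was singled out when its distance to the nearest of the other 4 of its genotype was a large part of their whole range. Among 18 groups of values (9 members in each of 2 genotypes) this applied to 1, PSMB10 in Het_8, at a log2 CPM of 4.94 (30.6 CPM) with the next CREBBP+/- library at 5.34. Chance gives about 1 in 20 groups. Het_8 lies with WT_1 and WT_2 by overall expression, where PSMB10 had 46.3 and 38.0 CPM.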

How the results depend on the processing

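No member was called by edgeR or in any of 18 alternatives, and no alternative scaling separated the genotypes in any member. The count of genes called over the whole table was 0 in edgeR, 34 in DESeq2, and 0 to 1 leaving out 1 library (1 without Het_6). The median log2 fold change of the members stayed below 0, from -0.40 (without WT_2) to -0.13 (without Het_8). The sign turned for TAP2 with upper-quartile factors (0.015) and, among fits leaving out 1 library that gave -0.059 (without WT_2) to 0.046 (without Het_8), also without WT_1 (0.0060), WT_3 (0.0085) or WT_4 (0.020), and for NLRC5 with the clusters as a covariate (0.034) and without Het_9 and Het_10 (0.025). The cause was not tested. The other 7 members kept their direction in every alternative. Clustering on all tested genes put all 10 libraries in the same clusters. No paired analysis was possible because the CREBBP+/- columns carry numbers that no labelled clone has. Leaving out Het_8 shrank the fold changes of HLA-B (-0.11), PSMB9 (-0.12), HLA-C (-0.23) and HLA-E (-0.30) by over 1.5 times. Leaving out WT_4 shrank HLA-B (-0.12), PSMB9 (-0.14) and HLA-C (-0.20) as far and enlarged B2M (-0.18). Other single libraries also moved a member as far, among them Het_6 for HLA-B (-0.50), WT_2 for PSMB9 (-0.42), WT_1 for B2M (-0.06) and Het_10 for NLRC5 (-0.09). NLRC5, at 186 to 602 reads, is the member whose values depth limits most.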
